A study of Mus musculus with 12 samples.

Results

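A set of 10 genes of innate immune signalling was followed in mouse liver: the receptor genes Tlr2, Tlr4 and Cd14, the cytokine genes Tnf, Il1b, Il6 and Il1rn, the NF-kB subunit genes Nfkb1 and Rela, and the inhibitor gene Nfkbia. Members were all probes that carry 1 of these 10 gene names in the scanner files, which gave 16 of 41174 probes, among 27670 gene names. The samples were livers of male C57BL/6 mice, 3 per group, with 1 array per mouse. Mice were either wild type for Sirt1 (SIRT1+/+, WT) or heterozygous (Het), and were kept for 34 weeks on a low-fat or a high-fat diet, giving WT low-fat, WT high-fat, Het low-fat and Het high-fat groups. Sirt1 encodes a protein deacetylase whose known substrates include the p65 subunit of NF-kB. No tissue-restricted driver is named in the labels, so the genotype is taken as that of the whole mouse. In bulk liver RNA, a change in the number of cells of a type and a change in RNA per cell cannot be told apart.

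Toll-like receptors are membrane proteins that recognise microbial products such as lipoproteins and lipopolysaccharide. Their adaptors activate the IKK kinases, which mark the inhibitor IκBα (Nfkbia) for destruction and so release dimers of NF-kB, classically p50 (made from the Nfkb1 product) with p65 (Rela), into the nucleus. NF-kB then drives cytokine genes such as Tnf, Il1b and Il6, and also its own inhibitors. In liver the resident macrophages, called Kupffer cells, are a main source of these cytokines, and the hepatocytes respond to them.

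A level here is the log2 of a probe's processed intensity minus the log2 of the 75th percentile of its array, so 0 is the brightness of that percentile and each unit is a factor of 2. Levels of different probes depend on the probe and are not set against each other. Tests were limited to probes that stood well above background in all 3 livers of some group, which left 15 of the 16 member probes and 25297 probes in all. Differences were tested with limma over all 12 arrays, and a probe was called at a Benjamini-Hochberg adjusted p under 0.05 over all 25297 probes.

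The arrays had 58.0% to 71.6% of their spots well above background, and hepatocyte marker genes were bright on all of them, with summed levels of 1460 to 2200 times the 75th percentile. Scan day 1 held the 6 high-fat arrays (slides 1 and 2) and scan day 2 the 6 low-fat arrays (slides 3 and 4). For each diet difference below, diet, slide and day of scanning cannot be told apart. Sirt1 itself, by its 2 probes, had levels of -1.14 to -0.31 and -0.37 to 0.23 in WT livers and of -1.69 to -1.12 and -0.73 to -0.23 in Het livers. Its Het minus WT difference over both diets was -0.64 ± 0.09 and -0.44 ± 0.09 (SE; limma adjusted p 0.355 and 0.935). The genotypes shared slide 2 (WT high-fat replicate 3 with the Het high-fat arrays) and slide 3 (the WT low-fat arrays with Het low-fat replicate 1).

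With diet over both genotypes, 5 of the 15 member probes were called, 3 higher on the high-fat diet (Tlr2, Cd14 and 1 Il1rn probe) and 2 lower (Il6 and 1 Nfkb1 probe). Of all probes tested, 29.4% were called in this comparison, 12.3% higher and 17.1% lower, so the members' share was close to the background. In WT mice 1 of 15 member probes was called (Tlr2, higher), against 5.69% of all probes (2.42% higher and 3.27% lower). In Het mice 4 of 15 were called, Tlr2 and Cd14 higher and Il6 and 1 Nfkb1 probe lower, against 14.8% of all probes (6.79% higher and 8.01% lower). The median diet difference over both genotypes was 0.15 for the 15 member probes and -0.03 for all probes, on the log2 scale.

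**Figure D1:**
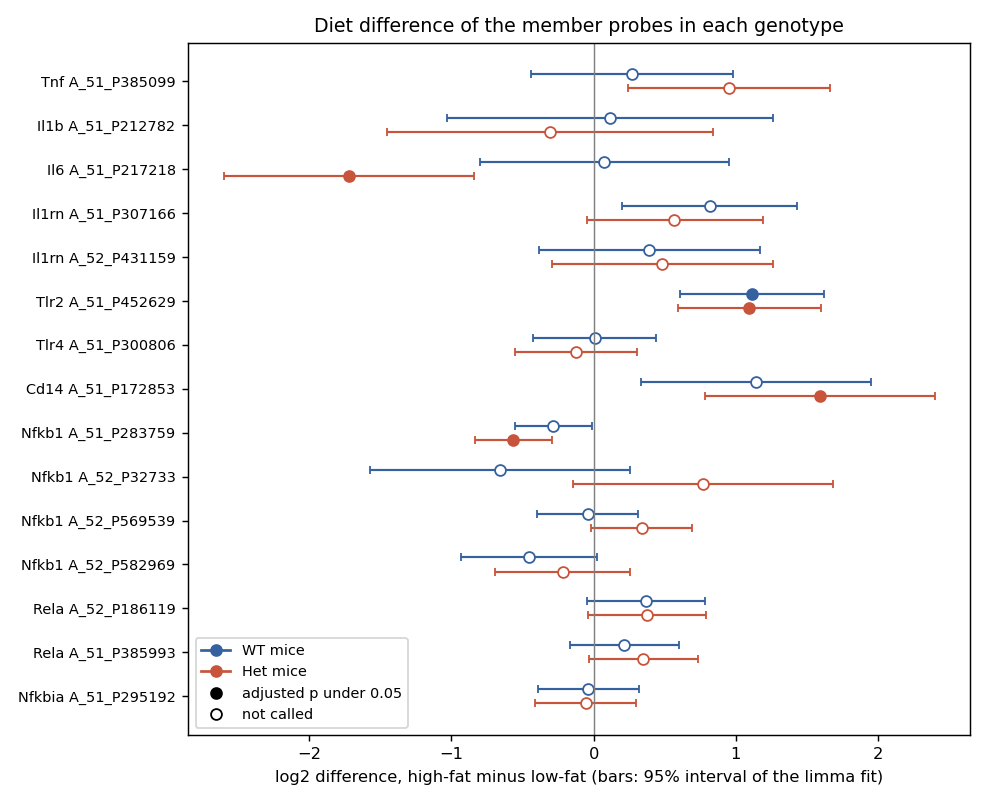
Diet difference (high-fat minus low-fat, log2) of the 15 tested member probes in WT (blue) and Het (red) mice, with bars for the 95% interval of the limma fit. Filled points had an adjusted p under 0.05: Tlr2 in both genotypes, and Cd14 (higher), Il6 and Nfkb1 A_51_P283759 (lower) in Het mice.

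Tlr2, the receptor for bacterial lipoproteins, was the member with the lowest p and was higher on the high-fat diet in both genotypes. Its levels were 0.86, 0.49 and 0.44 in WT high-fat livers and 1.07, 0.68 and 1.02 in Het high-fat livers. They were -0.53, -0.66 and -0.38 in WT low-fat livers and -0.21, 0.35 and -0.65 in Het low-fat livers. Every high-fat liver lay above every low-fat liver, with Het low-fat replicate 2 the nearest. The difference was 1.11 ± 0.16 (SE) over both genotypes, 2.15-fold, with a limma adjusted p of 0.00128. It was 1.11 ± 0.23 in WT mice (limma adjusted p 0.0255) and 1.10 ± 0.23 in Het mice (limma adjusted p 0.0132). The 4 groups ranked Het high-fat, WT high-fat, Het low-fat and WT low-fat, with means ± SD of 0.93 ± 0.21, 0.59 ± 0.23, -0.17 ± 0.50 and -0.52 ± 0.14. Within each diet the genotypes overlapped. The call over both genotypes held under every alternative run, whereas the call in WT mice was lost without any 1 of WT high-fat replicates 1, 2 and 3 and WT low-fat replicates 1 and 3 (limma adjusted p 0.0527 to 0.0793), and the call in Het mice was lost without Het high-fat replicate 1 (limma adjusted p 0.0575).

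The Tlr2 probe, spotted 10 times on each array, lies at chr3:83941473-83941532 on mm7, the build of the array design, on the minus strand. Its last 30 bases are shown with AATAAA in capitals, the letters of the polyadenylation hexamer, which occur in 4.78% of all probes. The place of the probe in the transcript was not analysed here.
Tlr2 A_51_P452629: gggtaaatctgagaactgcAATAAAgtcct

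Across the 12 arrays the probes most like Tlr2, by Pearson's r of their levels, were Icam1 (r = 0.983), which encodes an adhesion molecule for leukocytes, the collagenase gene Mmp13 (r = 0.982) and Ttc39a (r = 0.982). The arrays share the split by diet and scan day, and no test was made of these correlations.

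Cd14, which encodes the co-receptor that hands lipopolysaccharide to TLR4, was also higher on the high-fat diet. Its levels were 0.51, -0.20 and 0.23 in WT high-fat livers and 1.11, -0.01 and 0.86 in Het high-fat livers. In WT low-fat livers they were -1.32, -0.96 and -0.60, and in Het low-fat livers -1.31, -0.18 and -1.33. Within each genotype the diets did not overlap, but Het low-fat replicate 2 reached the level of the lowest WT high-fat liver. Over both genotypes Cd14 was 2.58-fold higher (1.37 ± 0.26, SE; limma adjusted p 0.00411), a call that held under every alternative run. In Het mice the difference was 1.59 ± 0.37 (limma adjusted p 0.0192). That call was lost without Het high-fat replicate 1, Het low-fat replicate 1 or Het low-fat replicate 3 (limma adjusted p 0.06 to 0.0807). In WT mice it was 1.14 ± 0.37 and did not pass (limma adjusted p 0.0874).

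Tlr4 encodes the lipopolysaccharide receptor itself, and its RefSeq probe did not pass the test. Levels were -2.51, -2.10 and -2.37 in WT high-fat livers, -2.68, -2.70 and -2.35 in Het high-fat livers, -1.99, -2.44 and -2.58 in WT low-fat livers and -2.48, -2.17 and -2.71 in Het low-fat livers. All 4 groups overlapped. The diet difference over both genotypes was -0.06 ± 0.14 (SE), with a 95% interval of -0.36 to 0.25 and a limma adjusted p of 0.779, and its sign turned with the scaling (0.000737 with the arrays scaled to their median). A second probe with the Tlr4 name, A_52_P24230, was designed on a cDNA clone 86.8 kb from the first and was well above background on none of the 12 arrays, so it was not tested.

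**Figure D2:**
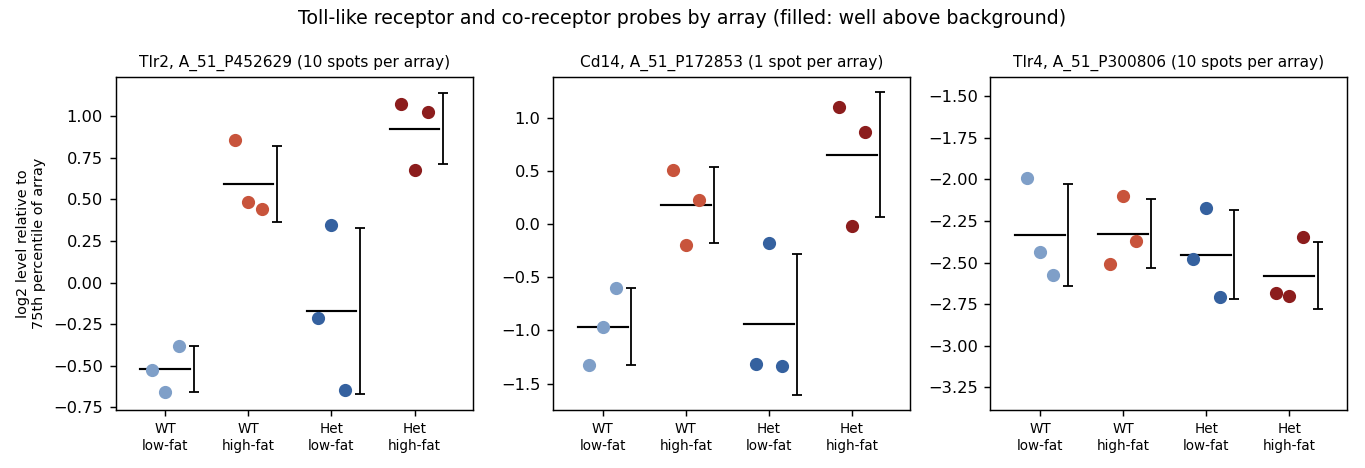
Log2 level of Tlr2, Cd14 and Tlr4 on each of the 12 arrays, by group, with a line at the group mean and a bar of 1 SD beside it (n = 3). Tlr2 and Cd14 levels were higher in the high-fat groups of each genotype, with Het low-fat replicate 2 the highest low-fat liver, and Tlr4 levels overlapped in all groups.

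Marker genes of the cells that carry these receptors were set beside them. Of 12 Kupffer cell and macrophage markers, all measured, 2 were called higher over both genotypes (Cd68, 0.61 ± 0.14, and C1qb, 0.69 ± 0.20) and 2 lower (Timd4, -1.72 ± 0.44, and Cd163, -1.94 ± 0.57). The Kupffer cell gene Clec4f differed by 0.03 ± 0.19. The summed level of the 12 markers was 135 to 168 in WT low-fat, 146 to 169 in WT high-fat, 99.3 to 188 in Het low-fat and 111 to 188 in Het high-fat livers, and so overlapped between diets. Of 7 measured neutrophil markers 3 were called higher and 1 lower, with summed levels of 1.39 to 2.05 in WT low-fat, 1.54 to 10.1 in WT high-fat, 1.42 to 3.39 in Het low-fat and 2.19 to 5.04 in Het high-fat livers. The 10.1 belonged to WT high-fat replicate 2 alone, and WT high-fat replicates 1 and 3 were at 2.11 and 1.54. The neutrophil marker Camp was well above background on 0 of the 6 low-fat arrays and 4 of the 6 high-fat arrays. Of 7 stellate cell markers 4 were called higher and 0 lower. Over all 17043 genes, 13.3% were called higher and 16.7% lower over both genotypes. Their summed levels were 59.2 to 62.9 and 52.6 to 70.5 in the WT and Het low-fat livers and 68.0 to 70.1 and 71.8 to 86.7 in the WT and Het high-fat livers. The part of these markers in the Tlr2 and Cd14 differences was not tested.

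Of the cytokine genes Tnf, Il1b and Il6, none was called higher with diet, and Il6 was called lower in Het mice near the detection limit. Tnf, the founding member of its cytokine family, had levels of -4.54, -4.95 and -4.67 in WT high-fat livers and -4.32, -4.33 and -3.89 in Het high-fat livers. The low-fat levels were -4.84, -4.85 and -5.27 in WT and -5.78, -4.26 and -5.36 in Het livers. High-fat levels were mostly the higher, but Het low-fat replicate 2 lay among the highest, and 2 of the 6 low-fat arrays were not well above background. The diet difference over both genotypes was 0.61 ± 0.23 (SE) and missed the threshold (limma adjusted p 0.0646). Without Het low-fat replicate 2 it was 0.83 and passed (limma adjusted p 0.00468). On all arrays it passed with quantile normalization (limma adjusted p 0.0218), normexp (0.0287), median scaling (0.0368), the slide block (0.00726) or the array trend on base composition and brightness removed (0.0479). The slide block does not guard against slide effects here, because diet differs only between slides and the correlation within slides was negative (-0.179). The Tnf probe passed the filter only through the high-fat groups, which were well above background throughout.

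Il1b, the gene of the inflammasome-processed cytokine IL-1β, varied widely within groups and did not pass the test. Its levels were -1.43, -1.01 and -1.01 in WT high-fat, -2.06, -1.68 and -0.57 in Het high-fat, -1.76, -1.89 and -0.15 in WT low-fat and -1.38, -0.29 and -1.73 in Het low-fat livers. Single livers at the top of their group, WT low-fat replicate 3, Het low-fat replicate 2 and Het high-fat replicate 3, made all 4 groups overlap. The probe's 10 spots on an array differed by a median SD of only 0.05, less than the livers of a group differed from each other. The difference over both genotypes was -0.09 ± 0.37 (SE), with a 95% interval of -0.90 to 0.72 (limma adjusted p 0.866). Its sign turned to 0.18 without WT low-fat replicate 3, to 0.12 without Het low-fat replicate 2 and to 0.06 without Het high-fat replicate 1.

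Il6, which encodes the cytokine that induces acute phase genes in hepatocytes, stood well above background in all 3 livers only in the Het low-fat group. Levels were -5.15, -4.03 and -4.62 there, and -6.42, -6.29 and -6.26 in Het high-fat livers, where the probe was not well above background on any array. In WT livers they were -4.49, -4.37 and -6.05 on the high-fat and -4.82, -5.17 and -5.15 on the low-fat diet, with 2 of 3 arrays well above background in each group. Het low-fat livers thus lay above all Het high-fat livers, while the WT diets overlapped. In Het mice the mean Il6 level was at least 2.34-fold lower on the high-fat diet, with the dim group set at its detection limit. This bound compares group means and leaves out the spread between livers. The fitted difference was -1.72 ± 0.40 (SE), with a 95% interval of -2.6 to -0.843 (limma adjusted p 0.0195). The probe passed the filter only through the group where it was high, a selection that favours a difference.

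The Il6 call in Het mice was lost with normexp background correction (-0.35, limma adjusted p 0.203), without Het high-fat replicate 1 (0.0719) and without Het low-fat replicate 2 (0.062). The normexp setting added an offset of 50, which by itself shrinks log2 differences of a probe this dim. Its processed signals in Het livers ran from 11.4 on the high-fat to 122 on the low-fat diet. The difference was 0.08 ± 0.40 in WT mice, and -0.82 ± 0.28 over both genotypes (limma adjusted p 0.0485), a value that kept its call only without WT high-fat replicate 1 or 2 or without Het low-fat replicate 1, and lost it without any 1 of the other 9 arrays (limma adjusted p 0.0507 to 0.104). With normexp background correction that value was -0.07 (limma adjusted p 0.701). The test of the difference between the genotypes' diet responses gave -1.79 ± 0.56 with a limma adjusted p of 0.854. Its 10 spots differed within an array by a median SD of 0.42, against 0.04 for Tlr2.

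Il1rn encodes the antagonist that blocks the IL-1 receptor and was measured by 2 probes of 1 RefSeq transcript, 2.07 kb apart on the genome. The first, at chr2:24354826-24355846 on mm7, covers more genome than its length and so crosses a splice junction, while the second, at chr2:24357916-24357975, lies downstream. The whole first probe and 30 bases of the second are shown, since only the first was called.
Il1rn A_51_P307166: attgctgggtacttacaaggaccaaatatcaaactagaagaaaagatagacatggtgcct
Il1rn A_52_P431159: tcttgaccattcattttatcacttctaacc

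By the first probe, Il1rn levels were -4.19, -4.34 and -4.16 in WT high-fat, -3.83, -4.42 and -4.28 in Het high-fat, -4.66, -5.06 and -5.43 in WT low-fat and -5.41, -4.36 and -4.48 in Het low-fat livers. The WT diets did not overlap and the Het diets did, with Het low-fat replicate 2 again the highest low-fat liver. The difference over both genotypes was 0.69 ± 0.20 (SE), 1.62-fold (limma adjusted p 0.0244). It was not called without WT high-fat replicate 1 or 3, without Het high-fat replicate 1 and without the third WT low-fat liver (limma adjusted p 0.0502 to 0.0604). This probe too passed the filter only through the high-fat groups. By the second probe the levels were -1.14, -0.95 and -1.28 in WT high-fat, -0.92, -1.36 and -0.64 in Het high-fat, -1.25, -2.26 and -1.03 in WT low-fat and -1.93, -0.77 and -1.67 in Het low-fat livers. These groups overlapped, and the difference of 0.44 ± 0.25 had the same sign but did not pass (limma adjusted p 0.208).

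**Figure D3:**
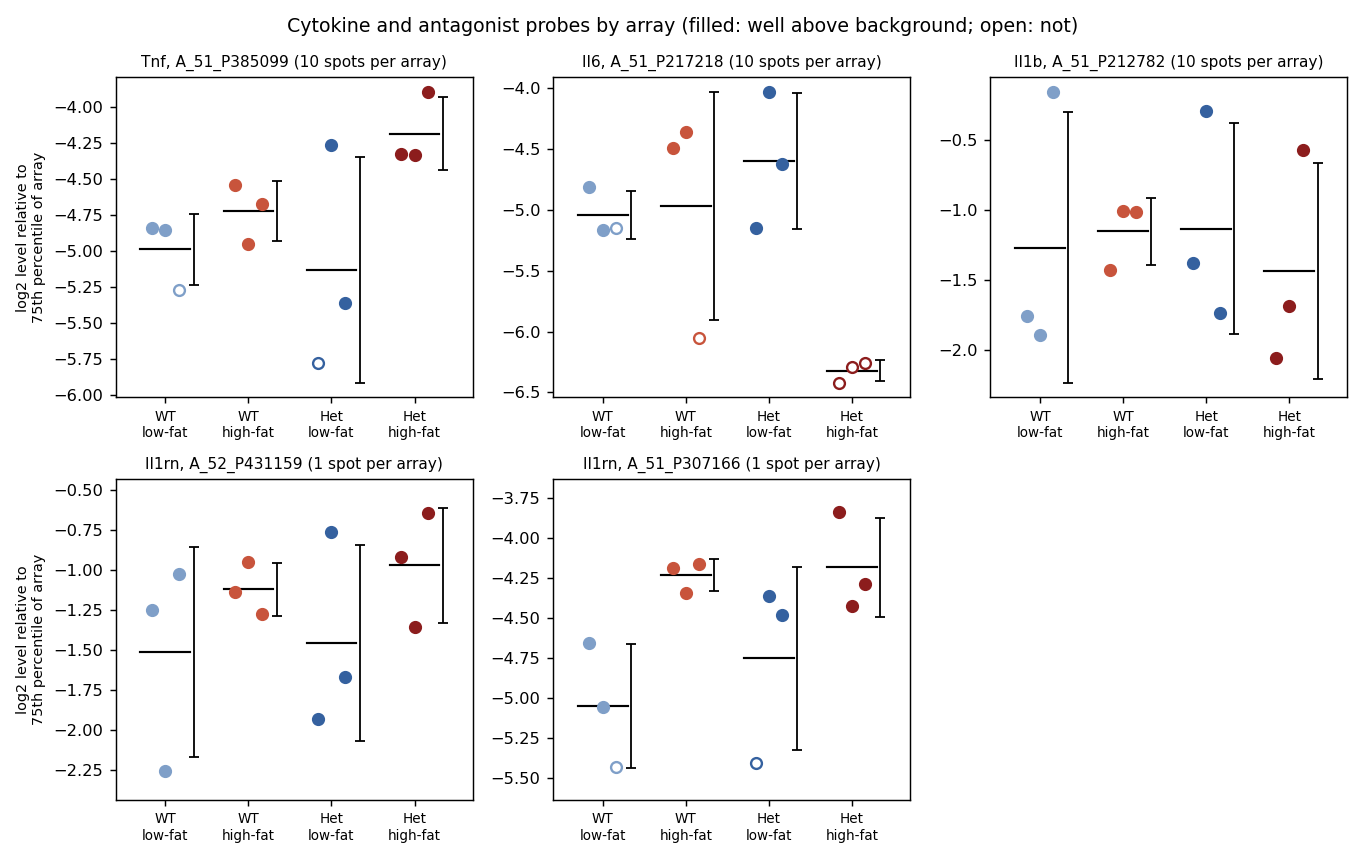
Log2 level of the Tnf, Il6, Il1b and Il1rn probes on each array, by group, with a line at the mean and a bar of 1 SD (n = 3); open points were not well above background. Il6 was not well above background in any Het high-fat liver, and Il1b spread widely within groups.

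Nfkb1, whose protein is processed to the p50 subunit, was measured by 4 probes that gave different values. Of the 4, A_51_P283759, the probe of the RefSeq transcript, was called with diet, lower in high-fat livers, and the others were not. The other 3 were designed on cDNA clones and lie 26.4 to 33.4 kb from it on the same strand, towards the start of the gene. On mm7 they lie on the minus strand at chr3:135379090-135379151 (A_51_P283759), chr3:135406524-135406583 (A_52_P582969), chr3:135405555-135405614 (A_52_P569539) and chr3:135412575-135412634 (A_52_P32733). The last 30 bases of each are shown with G and C in capitals, because base composition sets the called probe apart.
Nfkb1 A_51_P283759: tttaCatttGtaaatatGttttCtaatCaa
Nfkb1 A_52_P582969: atttGGCtattGttGGGtattaGaatCtaG
Nfkb1 A_52_P569539: CCaGaCtaGaaGtGtatGtatGGaGtGGtt
Nfkb1 A_52_P32733: GaaaCGGGtaaGttCaCaGGtaCatCtGaC

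Over the whole probe, 14 of 60 bases were G or C in A_51_P283759 (23.3%), a share as low as in only 2.02% of all probes, against 35%, 43.3% and 35% in the others in the order shown. A_52_P32733 also holds the letters GTAAGT, the form of a splice donor, which occur in 1.15% of all probes. Whether the clone probes lie in exons was not analysed here.

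By A_51_P283759, Nfkb1 levels were 1.15, 1.13 and 1.15 in WT low-fat and 1.01, 1.17 and 0.998 in Het low-fat livers. They were 0.75, 0.98 and 0.84 in WT high-fat and 0.70, 0.38 and 0.40 in Het high-fat livers. Every high-fat liver lay below every low-fat liver, and the Het high-fat livers were the lowest. The difference was -0.42 ± 0.09 (SE) over both genotypes (74.5% of the low-fat level; limma adjusted p 0.00585), -0.56 ± 0.12 in Het mice (limma adjusted p 0.0153) and -0.28 ± 0.12 in WT mice, where it did not pass (limma adjusted p 0.175). The Het call was lost without Het low-fat replicate 2 (limma adjusted p 0.0532).

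The direction of this probe's difference changed when each array's trend on base composition and brightness was removed together. Among the 212 tested probes of at most 25% G and C, the median diet difference over both genotypes was -0.56 and 59.4% were called lower, against medians of -0.22 from 25% to 35%, -0.02 from 35% to 45%, 0.08 from 45% to 55% and 0.09 above 55%. The Nfkb1 probe, at -0.42, thus fell less than the median probe of its composition. With that trend removed, the difference was 0.09 ± 0.09 over both genotypes (limma adjusted p 0.477), 0.12 in Het mice (limma adjusted p 0.589) and 0.07 in WT mice (limma adjusted p 0.766), so neither the direction nor the call held. Base composition and brightness were not removed separately. The same step left Tlr2 at 1.04 (limma adjusted p 0.00179) and Cd14 at 1.24 (limma adjusted p 0.00731). It left the called Il1rn probe at 0.75 (limma adjusted p 0.00919) and Il6 in Het mice at -1.71 (limma adjusted p 0.0168). Il6 over both genotypes was no longer called (-0.72, limma adjusted p 0.0616), and Tnf over both genotypes was (0.61, limma adjusted p 0.0479).

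**Figure D4:**
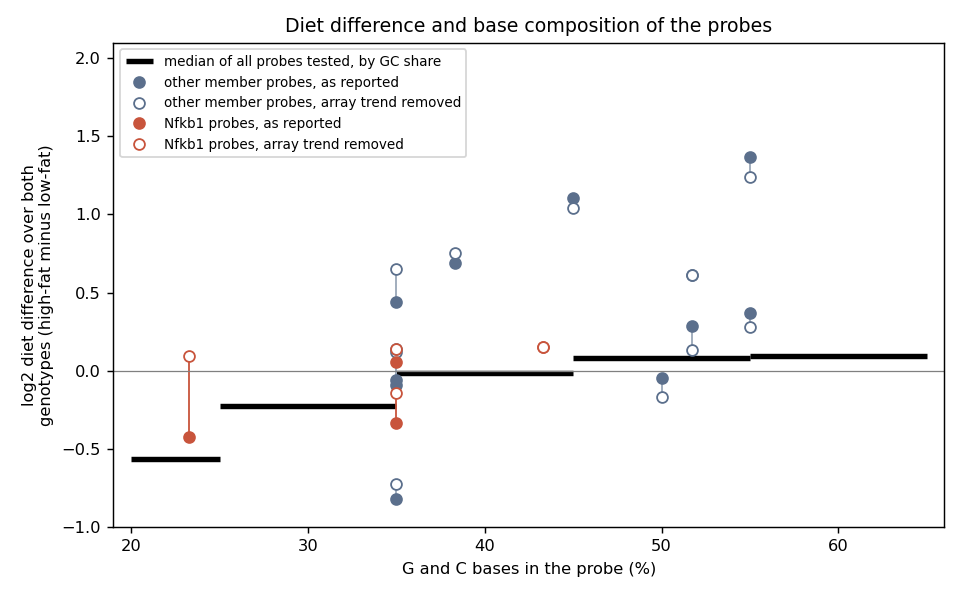
Log2 diet difference over both genotypes (vertical axis) against the share of G and C bases in the probe (horizontal axis, %) for the 15 member probes, as reported (filled) and with the array trend on base composition and brightness removed (open); black bars are medians of all tested probes by G and C share. The Nfkb1 probe at 23.3% moved from -0.42 to 0.09, while Tlr2 at 45% moved from 1.11 to 1.04.

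By A_52_P582969, Nfkb1 levels were -2.80, -2.76 and -2.59 in WT high-fat, -2.73, -2.94 and -2.24 in Het high-fat, -2.08, -2.68 and -2.04 in WT low-fat and -2.21, -2.42 and -2.62 in Het low-fat livers. The diets overlapped in both genotypes. The difference was -0.45 ± 0.22 in WT mice (limma adjusted p 0.216), -0.22 ± 0.22 in Het mice (limma adjusted p 0.519) and -0.34 ± 0.15 over both (limma adjusted p 0.121). The value over both became a call without Het high-fat replicate 3 (limma adjusted p 0.0412) and without WT low-fat replicate 2 (limma adjusted p 0.0345). With the array trend on base composition and brightness removed, the difference was -0.14 over both (limma adjusted p 0.44). It was then -0.27 in WT mice (limma adjusted p 0.382) and -0.01 in Het mice (limma adjusted p 0.97).

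By A_52_P569539 the levels were -3.39, -3.43 and -3.49 in WT high-fat, -3.29, -3.39 and -3.08 in Het high-fat, -3.37, -3.09 and -3.73 in WT low-fat and -3.54, -3.73 and -3.51 in Het low-fat livers. The Het high-fat livers all lay above the Het low-fat livers and the WT diets overlapped. The differences were -0.04 ± 0.16 in WT mice (limma adjusted p 0.893), 0.34 ± 0.16 in Het mice (limma adjusted p 0.173) and 0.15 ± 0.11 over both (limma adjusted p 0.347). The sign in WT mice turned under 3 other scalings or background corrections, with values of 0.04 to 0.08.

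A_52_P32733 was near the detection limit, with levels of -6.31, -6.12 and -5.78 in WT high-fat, -5.57, -5.46 and -3.74 in Het high-fat, -5.42, -5.67 and -5.15 in WT low-fat and -5.46, -5.48 and -6.12 in Het low-fat livers. It stood well above background throughout only in Het high-fat livers, through which it passed the filter, and there replicate 3 stood far above the other two. The differences were -0.66 ± 0.41 in WT mice (limma adjusted p 0.337), 0.77 ± 0.41 in Het mice (limma adjusted p 0.225) and 0.06 ± 0.29 over both (limma adjusted p 0.903). The WT high-fat and Het low-fat groups were not well above background on any array. With the Het low-fat group set at its detection limit, with a mean of -5.27, the Het high-fat mean was at least 1.27-fold higher. Of the Het high-fat livers only replicate 3 lay above that mean limit. In WT mice no bound is given, because the brighter low-fat group was well above background on only 2 of 3 arrays. Both 95% intervals of the fit included 0 (-1.57 to 0.254 in WT and -0.143 to 1.68 in Het mice), so neither direction was established. Without Het high-fat replicate 3 the difference was 0.17 in Het mice and -0.24 over both genotypes.

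**Figure D5:**
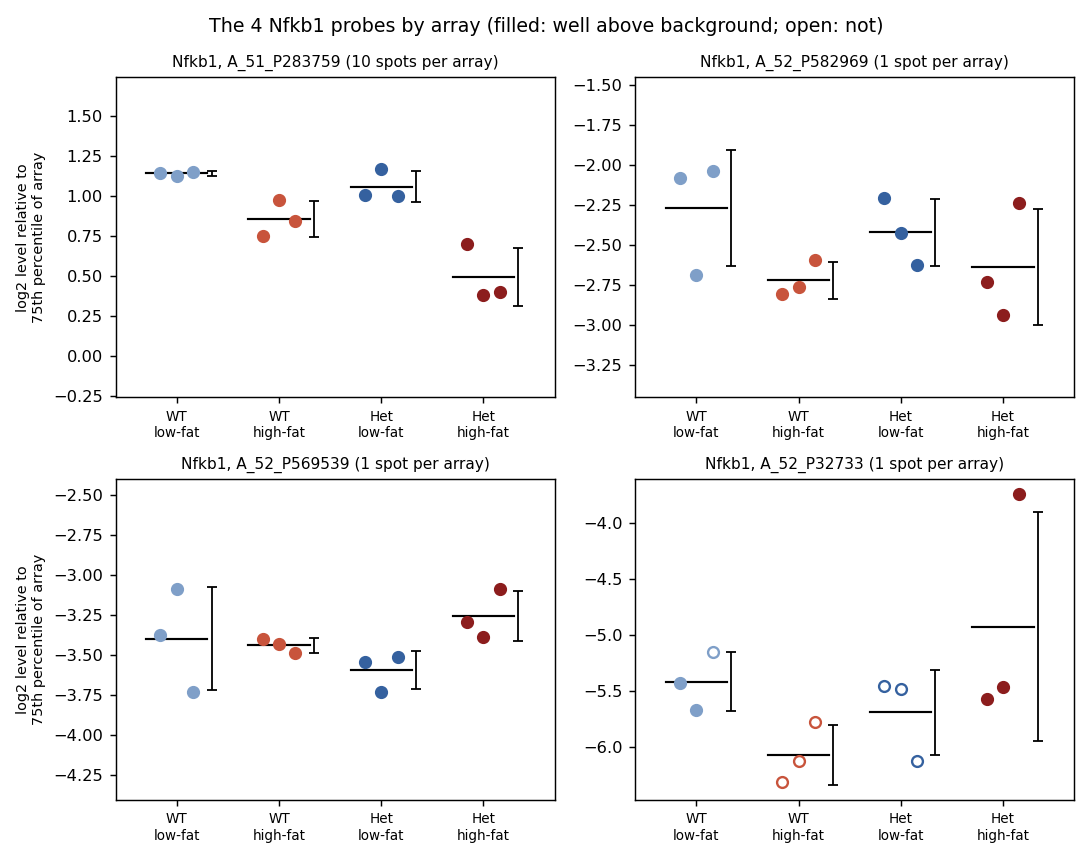
Log2 level of the 4 Nfkb1 probes on each array, by group, with a line at the mean and a bar of 1 SD (n = 3); open points were not well above background. A_51_P283759 was lower in all 6 high-fat livers, whereas the other 3 probes overlapped between the diets in at least 1 genotype.

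The genes most like each Nfkb1 probe were also listed, by Pearson's r over the same 12 arrays. They were Ppp5c (r = 0.958), Zfp781 (0.955) and Zfp758 (0.947) for A_51_P283759, and Smarcc1 (0.939), Rbm26 (0.929) and Rc3h2 (0.929) for A_52_P582969. For A_52_P569539 they were D130051D11Rik (0.899), Zfp207 (0.877) and Rrp1 (0.849), and for A_52_P32733 Parg (0.896), Ruvbl2 (0.876) and Tgm1 (0.854). No gene was named for more than 1 of the 4 probes.

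Rela, the gene of the transactivating p65 subunit, was measured by 2 probes that lie 0.436 kb apart, and neither passed the test. By A_52_P186119 the levels were -1.18, -1.48 and -1.44 in WT high-fat, -1.20, -1.11 and -1.17 in Het high-fat, -2.05, -1.26 and -1.90 in WT low-fat and -1.57, -1.65 and -1.39 in Het low-fat livers. By A_51_P385993 they were 2.34, 2.06 and 2.24 in WT high-fat, 2.39, 2.38 and 2.24 in Het high-fat, 1.76, 2.38 and 1.86 in WT low-fat and 1.97, 1.79 and 2.21 in Het low-fat livers. By both probes the Het diets did not overlap. WT low-fat replicate 2 lay among the WT high-fat livers by A_52_P186119 and above all of them by A_51_P385993. The differences over both genotypes were 0.37 ± 0.13 (limma adjusted p 0.0562) and 0.28 ± 0.12 (limma adjusted p 0.106). Without WT low-fat replicate 2 they were 0.49 (limma adjusted p 0.00522) and 0.38 (limma adjusted p 0.0201), both past the threshold. With that liver kept, A_52_P186119 also passed with quantile normalization (limma adjusted p 0.0409), median scaling (0.0351) and the slide block (0.0071), and A_51_P385993 with the slide block (0.0175). The slide block does not guard against slide effects here, because diet differs only between slides. With the array trend on base composition and brightness removed, neither passed. The differences were then 0.28 for A_52_P186119 (limma adjusted p 0.0794) and 0.13 for A_51_P385993 (limma adjusted p 0.308).

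Nfkbia, the gene of the inhibitor IκBα and itself a target of NF-kB, did not pass the test. Its levels were 4.10, 3.99 and 3.85 in WT high-fat, 4.05, 4.09 and 3.93 in Het high-fat, 3.75, 4.23 and 4.07 in WT low-fat and 4.23, 3.80 and 4.22 in Het low-fat livers. All groups overlapped. The difference over both genotypes was -0.05 ± 0.11 (SE), with a 95% interval of -0.30 to 0.20 (limma adjusted p 0.785), and turned to 0.01 with the arrays scaled to their median and without WT low-fat replicate 2.

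The question whether 1 lost copy of Sirt1 changed these genes was addressed by comparing Het with WT mice. No member probe was called with genotype in high-fat mice, in low-fat mice or over both diets, and none for the interaction of genotype and diet. Of all 25297 probes 0% were called in each of these comparisons, with 2288, 582, 1300 and 1343 probes at an unadjusted p under 0.05, of which 3, 0, 1 and 2 were member probes. The 3 on the high-fat diet were Il6 (-1.35 ± 0.40, limma adjusted p 0.427), Nfkb1 A_51_P283759 (-0.36 ± 0.12, limma adjusted p 0.437) and Nfkb1 A_52_P32733 (1.15 ± 0.41, limma adjusted p 0.462). For each, the WT and Het high-fat levels given above did not overlap. The same held for Tnf (0.54, limma adjusted p 0.661) and Nfkb1 A_52_P569539 (0.18, limma adjusted p 0.79), so the separation is not particular to the 3 probes. The 3 probes were picked by that unadjusted p, which favours such a separation. The share of such probes over all probes was not counted, so nothing is concluded from it. Il6 in Het high-fat livers and A_52_P32733 in WT high-fat livers were not well above background on any array. For Il6 no bound is given, because the WT high-fat group was well above background on only 2 of 3 arrays. With the WT high-fat group set at its detection limit, the Het mean was at least 1.78-fold higher for A_52_P32733. That probe passed the filter only through the Het high-fat group, and without Het high-fat replicate 3 its fitted difference was 0.56. The bound leaves out the spread between livers, and neither the Il6 nor the A_52_P32733 difference passed. Within slide 2, with WT high-fat replicate 3 alone for the WT, the Het livers differed by -0.27 for Il6, -0.35 for Nfkb1 A_51_P283759 and 0.85 for Nfkb1 A_52_P32733. Without WT high-fat replicate 3, Il6 on the high-fat diet was -1.89 and passed (limma adjusted p 0.0306). For Tlr2 the genotype difference on the high-fat diet was 0.33, with a 95% interval of -0.17 to 0.84, and for Cd14 it was 0.47, with an interval of -0.34 to 1.28.

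The other genes of the pathway were described by 9 lists of 92 genes without the members, of which 77 were measured, each by its brightest probe. The lists were chosen with earlier results of these data known, so no excess over the share of all genes is read from their counts. Over both genotypes 20 of the 77 were called higher on the high-fat diet and 8 lower, against 13.3% higher and 16.7% lower over all 17043 genes, and the median difference was 0.20 against -0.03. In WT mice 6 were called higher and 1 lower (2.74% and 3.13% of all genes), and in Het mice 12 higher and 5 lower (7.39% and 7.99%).

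These counts moved with the processing. Over both genotypes 13 were higher without the filter on dim probes, and 3 were lower with median scaling and 4 with the array trend removed or without the filter. In WT mice 10 were higher with median scaling, 13 with the slide block and 2 without the filter. In Het mice 22 were higher with the slide block, 3 without the filter and 4 with only the compared groups fitted, and the 5 lower became 2 without the filter or with the trend removed, 3 with median scaling and 8 with the slide block. In WT mice the 6 became 1 when replicate 1 of either WT diet group was left out, 2 without WT high-fat replicate 3 and 3 without WT high-fat replicate 2. In Het mice the 12 became 1 without Het high-fat replicate 1, 2 without Het low-fat replicate 1, 4 without Het low-fat replicate 3 and 8 without Het high-fat replicate 3. Over both genotypes leaving out an array gave 15 to 20 higher and 4 to 9 lower, with 4 lower without WT high-fat replicate 1 and 5 without Het high-fat replicate 1, WT low-fat replicate 3 or Het low-fat replicate 1.

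Among the other NF-kB subunits, both measured genes were called higher. Nfkb2, whose product gives the p52 subunit of the non-canonical pathway, rose by 0.97 ± 0.09 (limma adjusted p 0.000316) over both genotypes, and its partner Relb rose by 0.93 ± 0.14 (limma adjusted p 0.00156). Their group means were -1.29 and -0.98 in WT low-fat, -1.13 and -0.51 in Het low-fat, -0.39 and 0.19 in WT high-fat and -0.09 and 0.17 in Het high-fat livers. The third, Rel, was well above background in no group.

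Of 7 inhibitors of NF-kB 1 was called higher and 1 lower: Tnfaip3, which encodes the ubiquitin-editing enzyme A20, by 0.51 (limma adjusted p 0.0362), and the deubiquitinase gene Cyld by -0.37 (limma adjusted p 0.0364). The Tnfaip3 call was kept only without Het high-fat replicate 2, WT low-fat replicate 1 or Het low-fat replicate 2, and was lost without any 1 of the other 9 arrays. Cyld kept its call only without replicate 2 of WT high-fat, Het high-fat or WT low-fat, or replicate 1 of Het low-fat, and was at -0.15 with the array trend removed (limma adjusted p 0.391). Of 10 kinase genes 1 was higher and 3 lower, with Ikbkg, the regulatory subunit of IKK, at -0.56 (limma adjusted p 0.00859) and the IKK-related kinase Ikbke at 0.57 (limma adjusted p 0.0235). Ikbkg was at -0.21 with the array trend removed (limma adjusted p 0.202), and Ikbke lost its call without replicate 1 of any of the 4 groups, without Het high-fat replicate 2 and without WT low-fat replicate 3.

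Of 9 other Toll-like receptor genes and partners 4 were called higher and 0 lower by their brightest probes. The lowest p among these belonged to the flagellin receptor Tlr5 (0.81 ± 0.16, limma adjusted p 0.00527) and the receptor for single-stranded RNA Tlr7 (0.74 ± 0.15, limma adjusted p 0.00593). Of the 2 tested Tlr3 probes, the brightest was not called (-0.005, limma adjusted p 0.978), but the other was called lower. Of 12 adaptor genes 1 was higher, Traf3 (0.58, limma adjusted p 0.00442), and 1 lower, Traf6 (-0.38, limma adjusted p 0.0129), the latter not called with the array trend removed (-0.17, limma adjusted p 0.164). Of 2 inflammasome genes the adaptor Pycard was called higher (0.36, limma adjusted p 0.0402), a call kept only without WT high-fat replicate 3, Het high-fat replicate 2, WT low-fat replicate 1 or Het low-fat replicate 2, and lost with the array trend removed (0.24, limma adjusted p 0.148). The protease gene Casp1 differed by 0.01 (limma adjusted p 0.965), with a sign that turned when single arrays were left out.

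Of 8 other cytokine genes 2 were higher, the macrophage growth factor gene Csf1 (0.35, limma adjusted p 0.0111) and Il12b (limma adjusted p 0.0131). Il12b stood well above background throughout only in Het high-fat livers. Its mean there was at least 1.04-fold above the Het low-fat mean, with the latter set at its detection limit. Il12b passed the filter only through the Het high-fat group, and in WT mice its probe gives no bound on a diet difference. Of 10 cytokine receptor genes 1 was higher, Il10ra (0.76, limma adjusted p 0.00235), and 1 lower, Il1rap, the shared chain of the IL-1 receptor (-0.73, limma adjusted p 0.00118). Of 17 measured NF-kB target genes 7 were higher and 2 lower. The monocyte attractant Ccl2 rose by 1.53 ± 0.23 (limma adjusted p 0.00135) and Icam1 by 0.79 (limma adjusted p 0.0026).

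The promoters of the members were searched for the NF-kB consensus decamer, on both strands, in the 250 bases before each start in RefSeq on GRCm38.p6. It was found in 4.46% of 27025 genes, in 19 of 76 of the other pathway genes (25%) and in 3 of the 7 members with an entry: Tlr2, Il6 and Nfkbia. The pathway lists include a list of 21 NF-kB target genes, and the members also include NF-kB targets. This choice of genes favours a higher share, so no excess is read from these counts. No match was found in Il1rn, Il1b, Tnf or Rela. The matches are shown, with the decamer in capitals and in the direction of the gene, because 1 of these genes was called higher with diet, 1 lower and 1 not at all. They lie at chr3:83841761-83841790 on the minus strand for Tlr2, chr5:30013060-30013089 on the plus strand for Il6 and chr12:55492657-55492686 on the minus strand for Nfkbia.
Tlr2: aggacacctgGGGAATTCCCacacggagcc
Il6: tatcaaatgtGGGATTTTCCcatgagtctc
Nfkbia: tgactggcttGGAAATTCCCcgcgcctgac

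The Tlr2 match reads the same on both strands and overlaps another match that starts 1 base earlier, and it ends 162 bases before the start. The Il6 match ends 34 and the Nfkbia match 19 bases before the start. Tlr2 was the one called higher over both genotypes, Il6 was lower and Nfkbia was not called. A match of letters is a description of the window and was not tested against binding.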

How the data were processed

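Cy3-labelled liver RNA of 12 mice was measured on 1-colour arrays of 60-base probes. The deposited intensity values are processed signals (Feature Extraction 9.5 of Agilent, per the submitters' processing notes), background-subtracted per the file headers, with no normalization between arrays recorded. The deposited table of the series held the same intensity values (540216 of 540216). Control spots and 1344 outlier-flagged spots were left out, the log2 of each array's 75th percentile was subtracted, and spots of 1 probe were averaged. Probes well above background in all livers of some group, with values on at least 2 arrays of each, were tested.

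Group means were fitted with limma 3.58.1 (R 4.3.3; 8 residual and 2.99 prior degrees of freedom) for 7 comparisons, two-sided, with Benjamini-Hochberg adjustment over 25297 probes. On simulated data the fit recovered 90 of 100 differences of 1 and 99 of 100 of 2 (log2) for diet over both genotypes. Bounds set a dim group at the lowest signal well above background on each array. They compare group means and leave out the spread between livers. The array trend was removed with loess (span 0.5) on G and C share and brightness. Precision is limited by the number of arrays.

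The members and gene lists were chosen with earlier results of these data known. Every member probe is given, and for each pathway list its counts and the 2 genes of lowest p in diet over both genotypes; the 3 most alike genes are named for the member of lowest p and each Nfkb1 probe. Lists of marker genes covered hepatocytes, Kupffer cells, neutrophils, stellate cells, endothelial cells, T and NK cells, B cells and adipocytes. Alternatives covered background correction, normalization, the filter, probes per gene, the groups fitted, replicate and slide blocks, removing the array trend, and leaving out each array.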

Additional observations from a re-analysis of the deposited data

How the results depend on the processing

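Tlr2 and Cd14 over both genotypes kept their direction and call under all alternatives run. Each other call of a member probe was lost under at least 1 alternative, and the cause was not tested. Diet calls over all probes were 1439 in WT, 3745 in Het and 7439 over both. Without the filter on dim probes, where more probes were tested, WT gave 206 and Het 1567. With only the compared groups fitted, on fewer arrays, they gave 796 and 2191. With slide as a random block they gave 5456 and 7808, and both genotypes 12810; the correlation within slides was negative (-0.179) and diet differs only between slides. Replicate numbers did not pair the arrays (r of -0.465 to 0.457 between same-numbered arrays); with the replicate block WT gave 701 and genotype over both diets 1 probe. Leaving out 1 array gave 261 to 1645 in WT, 1136 to 4139 in Het and 5380 to 8140 over both. For genotype, quantile normalization gave 1 on the high-fat diet. The slide block gave 1 in each of the 3 genotype comparisons, in which slide was a fixed term and not a random block. Leaving out 1 array gave 0 to 61 on the high-fat diet (61 without WT high-fat replicate 3), 0 to 1 on the low-fat diet, 0 to 8 over both diets and 0 to 5 for the interaction.

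Of member probes, WT gave 2 with quantile normalization, median scaling or the trend removed, 0 without the filter and 3 with the slide block, Het 1 with only the compared groups, and both genotypes 3 without the filter and 9 with the slide block. Leaving out 1 array gave 0 to 2 in WT, 1 to 4 in Het, 3 to 7 over both and 0 to 1 for genotype on the high-fat diet. Median scaling moved the share of higher probes among those called from 42.6% to 75% in WT, from 45.9% to 54.5% in Het and from 41.9% to 59% over both; in WT it was 58.6% with quantile normalization and 60% with the trend removed.

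Signs that turned belonged to differences that were not called, apart from Nfkb1 A_51_P283759, which with the trend removed was 0.1164 in Het, 0.07177 in WT and 0.09411 over both. Over both genotypes Il1b was 0.1207 with the trend removed and -0.3109 to 0.1844 without 1 array. Tlr4 was 0.02276 with normexp, 0.000737 with median scaling, 0.1354 with the trend removed and -0.1212 to 0.02778 without 1 array. Nfkb1 A_52_P32733 was -0.2408 to 0.2161 without 1 array, Nfkbia 0.01241 with median scaling and -0.1171 to 0.007526 without 1 array, and Casp1 -0.01865 with the trend removed and -0.05114 to 0.08925 without 1 array. In WT mice Il6 was -0.2262 to 0.6155 without 1 array. Nfkb1 A_52_P569539 there was 0.06409 with normexp, 0.04167 with quantile normalization, 0.07697 with median scaling, 0.03932 with the trend removed and -0.2077 to 0.1136 without 1 array.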

Other observations

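The rank of each liver within its group was counted over the member probes, and these counts were not tested. Het low-fat replicate 2 had the highest level of its group for 9 of the 15 probes, Tlr2, Cd14, Tnf, Il1b and Il6 among them, and its summed Kupffer cell and macrophage marker level was 188, against 99.3 and 132 in the other Het low-fat livers. Het high-fat replicate 3 had the highest level of its group for 8 of the 15 probes, with a summed marker level of 111, the lowest of the high-fat livers. Summed neutrophil marker levels were 3.39 in Het low-fat replicate 2 and 5.04 in Het high-fat replicate 3, each the highest of its group. Other livers had similar counts. WT high-fat replicate 1 and WT low-fat replicate 3 were each highest for 7 of the 15 probes, and Het high-fat replicate 2 was lowest for 9.

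Of markers of other liver cells, 2 of 9 measured hepatocyte genes were called lower over both genotypes and 0 higher, 1 of 7 endothelial genes was higher and 2 lower, 2 of 7 T and NK cell genes were lower and 0 higher, and 0 of 4 B cell genes were called. Over all 17043 genes, 13.3% were called higher and 16.7% lower. Of 5 adipocyte genes only Cfd was measured, and it was called higher (1.67 ± 0.55, limma adjusted p 0.0435).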
